A study of Mus musculus with 9 samples.

Results

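The Sox genes described here are the members of the Sox family of transcription factors that a fixed list of 10 genes named and that the array measured. Their probes were taken by gene symbol alone, and every probe carrying a listed symbol was kept. The list itself was chosen with earlier results of these data known. The list gave 9 genes with 13 probes, out of 18120 symbols and 25697 probes on the array. *Sox1*, *Sox2* and *Sox3* form subgroup SoxB1, *Sox21* belongs to SoxB2, *Sox4* to SoxC, *Sox8* and *Sox9* to SoxE, and *Sox17* and *Sox18* to SoxF. *Sox11*, the remaining listed gene, was not analysed here. The deposited annotation places *Sox3* on chromosome X, *Sox4* on 13, *Sox8* on 17, *Sox9* on 11, *Sox17* on 1 and *Sox21* on 14. *Sox2* and *Sox17* had 2 probes each, *Sox21* had 3 and the other genes had 1. Probes of a gene are numbered from the brightest to the dimmest.

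The study compared the transcriptional state of the early otic lineage with that of non-otic tissues. Embryos of the outbred CD-1 mouse strain were taken at E10.5 from 3 litters, with no treatment or altered gene named, and dissected into 3 tissue groups of 3 pools each. The first group held otic vesicles (OV), the fluid-filled epithelial spheres that give rise to the inner ear. The second held periotic tissue, which is the mesenchyme and hindbrain around the vesicle, and the third, embryo-minus-otic, held the remaining embryo once the greater otic region had been cut away. Each pool mixed tissue of several embryos, the periotic and embryo-minus-otic groups are mixtures of many cell types, and each pool was hybridized to 1 Illumina mouse bead array.

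Sox proteins share the HMG box, a DNA-binding domain that bends DNA, and are grouped by the similarity of that domain. SoxB1 proteins are known for keeping neural and sensory progenitors undifferentiated, whereas the SoxB2 protein SOX21 is known as a repressor that opposes them. SoxC genes act in differentiating neurons, SoxE genes in neural crest, glia, cartilage and the otic placode, and SoxF genes in endothelium and, for *Sox17*, in endoderm.

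Values are log2 intensities after quantile normalization over the 9 arrays, and errors are SD over the 3 arrays of a group unless an SE is named. The 3 groups were fitted together for every probe with limma. Comparisons were adjusted by Benjamini-Hochberg over all 25697 probes, the adjusted p is written *q*, and a call was made where it was under 0.05. These values measure the spread between pools. Detection p under 0.01 was read as a signal above background. Where no array of the dimmer group was above background, fold Δ is a lower bound, written as "at least". It bounds the ratio of the measured group means and leaves out the spread between arrays. In bulk tissue, fewer cells of a type and less RNA per cell cannot be told apart. Levels of different probes are not compared, since probes differ in sensitivity.

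Of the 13 Sox probes, 7 were called between OV and periotic tissue, with 1 higher in OV (*Sox9*) and 6 lower. That is 53.8% of the Sox probes, against 10.2% of all probes (5.07% higher and 5.15% lower). Between OV and the remaining embryo 7 probes were called as well, 4 higher and 3 lower in OV, against 11.4% of all probes (5.89% higher and 5.51% lower). Between the non-otic groups the 2 called probes were both for *Sox21*, which is 15.4% of the Sox probes against 5.81% of all probes. Both were higher in periotic tissue, as were 2.86% of all probes. The share of called probes rises with signal. Among the 11849 probes that were above background on every array of 1 group or more it was 20.9%, 23.2% and 12.1% in the same order of comparisons. The median Sox difference was -0.36 for OV minus periotic tissue, -0.014 for OV minus embryo-minus-otic and 0.23 for periotic tissue minus embryo-minus-otic, where the medians over all probes were -3.71e-05, 0.0043 and 0.0066. The arrays of the groups did not overlap for 9, 9 and 5 of the 13 Sox probes, against 25.1%, 24.9% and 19.8% of all probes.

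Detection set what could be measured. Of the 13 Sox probes, 6 were above background on all 9 arrays and 10 on every array of 1 group or more. The *Sox1* probe was above background on no array. The *Sox3* and *Sox4* probes reached it on 2 arrays each.

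**Figure D1:**
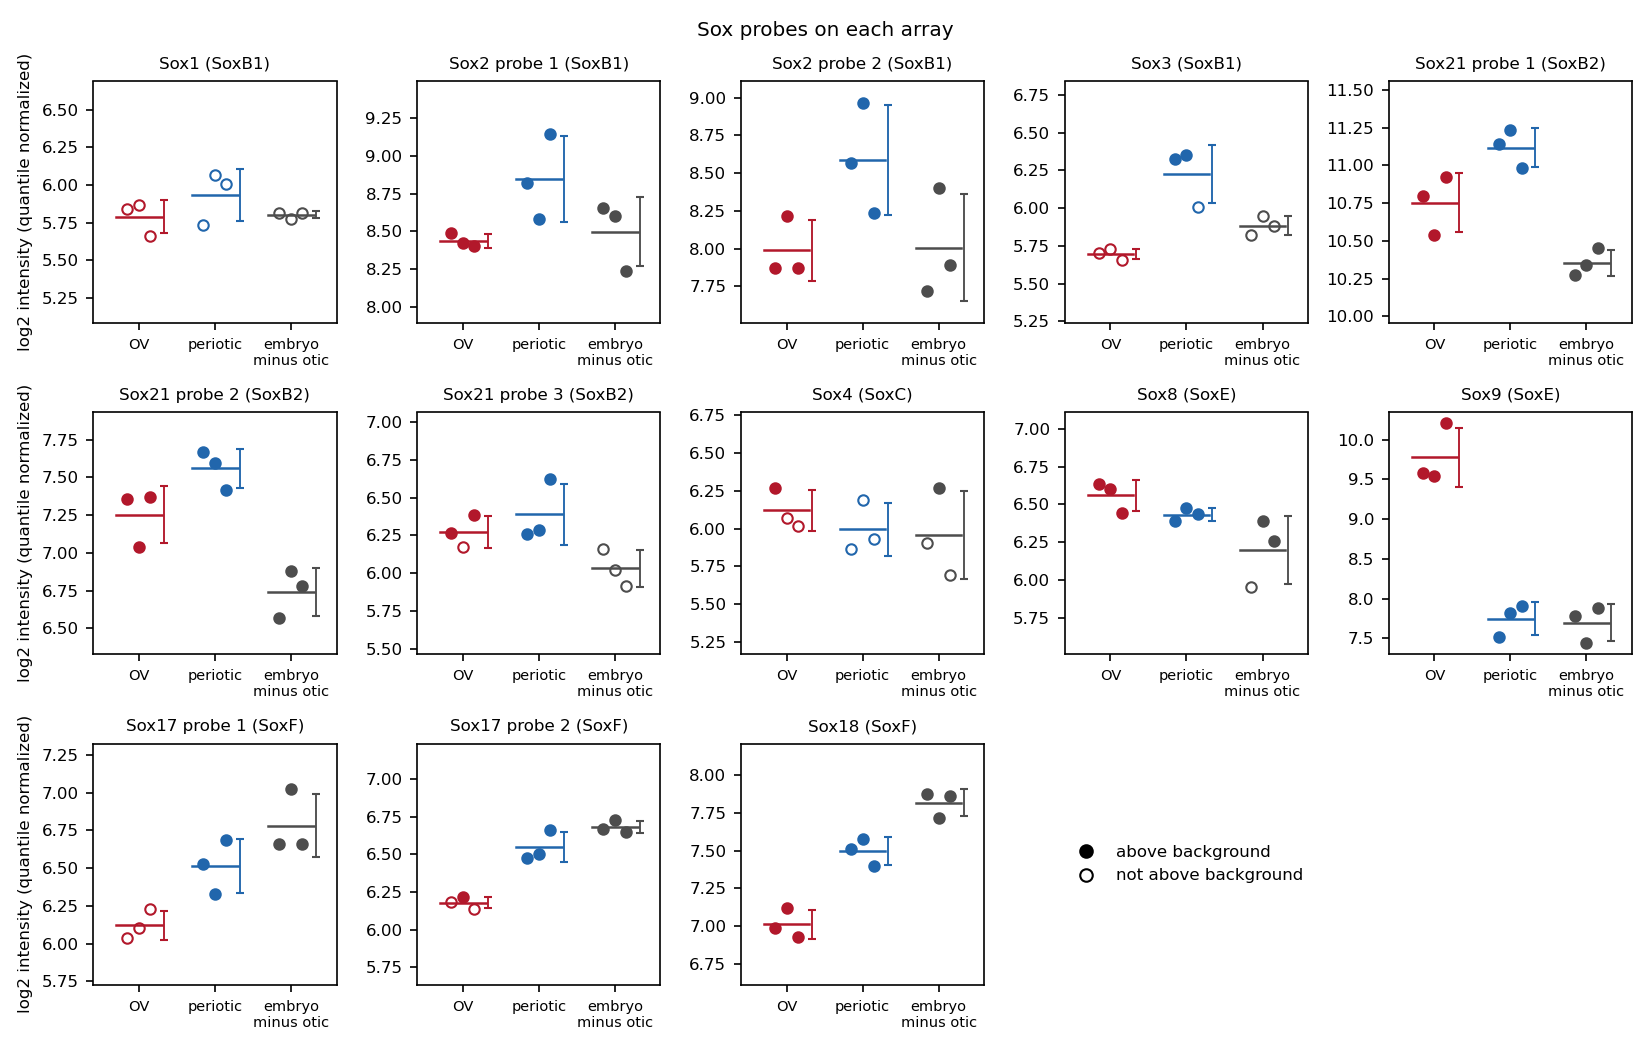
Log2 intensity of each Sox probe (vertical axis, with its own scale in every panel) on the 3 arrays of each tissue group. Points are arrays, filled where the probe was above background, horizontal lines are group means and bars are SD. The *Sox9* arrays of OV sit between 9.54 and 10.20, above all non-otic arrays, whereas both *Sox17* probes and *Sox18* are lowest in OV.

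Across the whole array, between 43.9% and 47.3% of probes were above background on each array, and no array stood apart in this respect. The tissue labels were checked with marker lists. Of 13 measured genes of an otic list, 11 were higher in OV than in each non-otic group, as were 8 and 7 of 8 epithelial genes. Of 9 mesenchyme genes, 9 were lower in OV than in the remaining embryo and 1 was lower than in periotic tissue. Of 9 erythroid genes, 8 were lower in OV than in each non-otic group, and their summed intensity ran from 12558 to 30807 in OV, 48660 to 57492 in the periotic pools and 65072 to 71595 in the remaining embryo. Of all called probes, 51.6% were higher in OV than in the remaining embryo and 49.3% were higher in periotic tissue than in that group, and with median normalization in place of quantile normalization these shares were 68.7% and 72.0%.

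*Sox9*, the SoxE gene known from the otic placode, neural crest and cartilage, gave the largest Sox difference on the array. Its log2 intensity was 9.58, 9.54 and 10.20 on the OV arrays. It was 7.51, 7.82 and 7.91 on the periotic arrays and 7.77, 7.44 and 7.88 on the embryo-minus-otic arrays. Every OV array thus lay above every non-otic array, while the arrays of the non-otic groups overlapped. OV minus periotic tissue was 2.03 (SE 0.16, 95% interval 1.68 to 2.38), a fold Δ of 4.08 (limma, Benjamini-Hochberg *q* = 3.32e-07). OV minus embryo-minus-otic was 2.08 (SE 0.16, 95% interval 1.73 to 2.43), a fold Δ of 4.22 (*q* = 2.77e-07). By size of difference the probe ranked 132 and 101 of 25697 in these comparisons. Both calls held in all 15 alternative settings. Periotic tissue minus embryo-minus-otic was 0.050, with a 95% interval from -0.30 to 0.40 (*q* = 0.940), and a difference inside that interval cannot be told from 0 with these arrays.

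*Sox8*, the other SoxE gene measured, works beside *Sox9* in neural crest and gonad. Its log2 intensity was 6.64, 6.60 and 6.44 in OV, 6.39, 6.47 and 6.43 in the periotic pools, and 5.95, 6.39 and 6.26 in the remaining embryo, where 1 array was not above background. All OV arrays lay above the embryo-minus-otic arrays and overlapped with the periotic arrays. OV minus embryo-minus-otic was 0.36 (SE 0.11, fold Δ 1.28, *q* = 0.0427). This call rests close to the threshold and was lost in 11 of 15 alternatives. It was lost without embryo-minus-otic array 1 (0.24, *q* = 0.169) or array 3 (0.39, *q* = 0.0654), without OV array 1 (0.32, *q* = 0.149) or array 2 (0.34, *q* = 0.134), and without periotic array 1, 2 or 3 (*q* = 0.0603, 0.0562 and 0.0531). The difference from periotic tissue was 0.13 (95% interval -0.10 to 0.36, *q* = 0.635).

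*Sox5*, a SoxD gene outside the list whose protein is known to act with SOX9 on cartilage genes, had 4 probes. The brightest gave 9.69, 9.99 and 10.38 in OV, 8.39, 8.41 and 8.16 in the periotic pools, and 8.85, 9.28 and 8.80 in the remaining embryo. All 3 groups were separate on this probe. OV was higher than periotic tissue by 1.70 (SE 0.16, fold Δ 3.24, *q* = 1.47e-06) and higher than the remaining embryo by 1.04 (SE 0.16, fold Δ 2.06, *q* = 2.55e-04). Unlike *Sox9*, this probe also passed the test between the non-otic groups, with periotic tissue lower by 0.65 on the log2 scale (*q* = 0.0208), although the difference between the genes was not tested. Probe 2 of *Sox5* was higher in OV by 1.03 and 0.93, and probe 4, above background on OV arrays only, by at least 1.09-fold and 1.07-fold. Probe 3 was not called in any comparison. The 3 probes of *Sox6*, the other SoxD partner in cartilage, were above background on no array.

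The cartilage matrix list, whose genes include known SOX9 targets, had 11 measured genes. Against periotic tissue 3 were higher and 1 was lower in OV, with the same counts against the remaining embryo, and 7 were not called in either comparison. *Col9a2*, a chain of collagen IX, was higher by 2.73 against periotic tissue (*q* = 1.62e-10) and by 2.72 against the remaining embryo (*q* = 3.86e-10). *Col2a1*, the collagen II chain, was higher by 2.22 (*q* = 1.13e-09) and 2.19 (*q* = 2.19e-09). *Matn1*, which encodes matrilin, was above background on OV arrays only and higher by at least 1.45-fold and 1.42-fold. *Hapln1*, which links proteoglycan to hyaluronan, was the exception, lower in OV by 0.58 (*q* = 0.0211) and 0.70 (*q* = 0.00577) on the log2 scale. None of the 11 genes was called between the non-otic groups (limma), where 1 was lower in periotic tissue at an unadjusted p under 0.05 and neqc, another background correction, gave 1 call, and *Acan*, the main cartilage proteoglycan, was above background on no array. The list's median difference was 0.076 and 0.038 for OV against periotic tissue and the remaining embryo, near the medians of all probes. Only 4 of the 11 genes (*Col9a2*, *Col2a1*, *Matn1* and *Hapln1*) were above background on every array of 1 group or more. In OV, periotic tissue and the remaining embryo, 5, 7 and 7 genes were above background on no array. The list median therefore says little about the genes that were not detected.

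Over the 9 arrays, the probes whose profile lay closest to that of *Sox9* were for *Col2a1*, *Col6a1* and *Klhl8*. Likeness was measured as the root mean square difference of log2 values after each probe was centred on its own mean, over 11839 probes that were above background on every array of 1 group or more. It was 0.144 for a second *Col2a1* probe, 0.157 for *Col6a1* and 0.176 for *Klhl8*, where the median over the compared probes was 1.01. A probe that did not vary would lie at the own spread of *Sox9*, its root mean square deviation over the arrays, which was 0.995. The median therefore mostly reflects that spread. *Col2a1* and *Col6a1* encode fibrillar and beaded-filament collagens. *Klhl8* encodes a kelch-like protein.

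**Figure D2:**
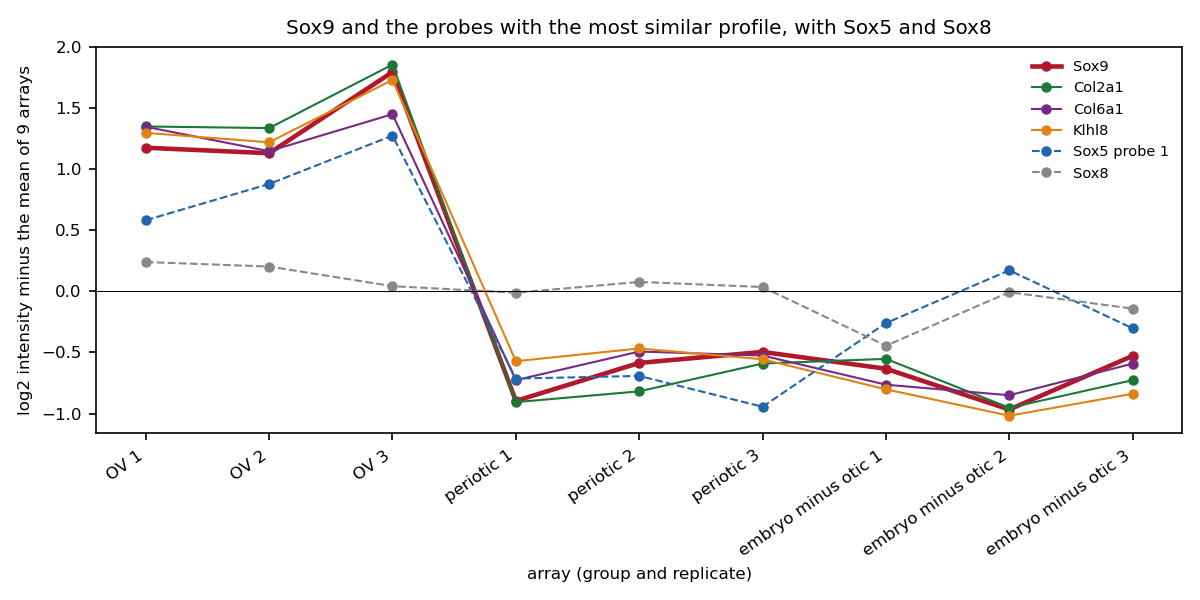
Log2 intensity minus the mean of the 9 arrays (vertical axis) on each array (horizontal axis) for *Sox9*, the 3 probes nearest to its profile, *Sox5* probe 1 and *Sox8*. Lines join the arrays only to guide the eye. *Col2a1*, *Col6a1* and *Klhl8* stay close to *Sox9* over the 9 arrays, *Sox5* is lowest in periotic tissue, and *Sox8* varies little.

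Neural crest genes, of which 11 were measured, did not follow *Sox9* as a list. Only 5 of them were above background on every array of 1 group or more. Against periotic tissue 1 was higher and 4 were lower in OV, and against the remaining embryo 1 was higher and 6 were lower. *Tfap2b*, a crest transcription factor, was lower by 3.16 and 3.28 on the log2 scale, and *Ednrb*, an endothelin receptor, was lower by 2.95 and 1.45. With median normalization or none, 4 genes in place of 7 were called against the remaining embryo. In OV, periotic tissue and the remaining embryo, 6, 5 and 5 of the 11 genes were above background on no array. The 7 calls against the remaining embryo therefore include genes near background. The list's summed intensity ran from 1733 to 1842 in OV, 5171 to 5543 in the periotic pools and 3387 to 3563 in the remaining embryo. Converted back from its log2 group means, *Ednrb* alone stood at 417, 3231 and 1140 in the same order. The higher sum in periotic tissue than in the remaining embryo thus rests on this gene.

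*Sox2*, the SoxB1 gene of neural and sensory progenitors, had its highest group mean in periotic tissue on both probes. It did not separate OV from the rest of the embryo. Probe 1 gave 8.49, 8.43 and 8.40 in OV, 8.82, 8.58 and 9.15 in the periotic pools and 8.65, 8.60 and 8.24 in the remaining embryo. Probe 2 gave 7.87, 8.22 and 7.87 in OV, 8.57, 8.96 and 8.24 in the periotic pools and 7.72, 8.40 and 7.89 in the remaining embryo. On both probes all OV arrays lay below all periotic arrays and overlapped with the embryo-minus-otic arrays. Against periotic tissue OV was lower by 0.41 on probe 1 (SE 0.13, *q* = 0.0731, not called) and by 0.60 on probe 2 (SE 0.18, *q* = 0.0471, called), so the probes fell on different sides of the threshold. Against the remaining embryo the 95% intervals of the difference ran from -0.35 to 0.23 and from -0.40 to 0.37. The probe 2 call was lost without OV array 1 (-0.54, *q* = 0.157) or array 3 (-0.54, *q* = 0.166), without periotic array 1 (-0.61, *q* = 0.122) or array 2 (-0.41, *q* = 0.232), and without embryo-minus-otic array 3 (-0.60, *q* = 0.0612). It was lost as well with neqc (-0.69, *q* = 0.142) and median normalization (-0.66, *q* = 0.234). The call held in the other 8 of 15 alternatives, where the lowest limma *q* was 8.36e-04. Probe 1 was called without periotic array 2 (-0.55, *q* = 0.0179) or embryo-minus-otic array 3 (-0.41, *q* = 0.0468), and when only the compared groups were fitted (*q* = 0.0428). Periotic tissue minus embryo-minus-otic was 0.35 (limma *q* = 0.182) and 0.58 (*q* = 0.0813). Probe 2 was called there without embryo-minus-otic array 2 (0.78, *q* = 0.0103) or periotic array 3 (0.76, *q* = 0.0219). It was called as well without normalization between arrays (0.65, *q* = 0.0266) and with the replicate number as a block (0.58, *q* = 0.00202).

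*Sox3*, a SoxB1 gene of the neural tube, was above background on 2 periotic arrays only. Its log2 intensity was 6.32, 6.35 and 6.01 in the periotic pools, 5.70, 5.73 and 5.66 in OV and 5.82, 5.95 and 5.88 in the remaining embryo. The periotic arrays lay above all others, and periotic tissue was at least 1.02-fold higher than OV, with a fitted difference of 0.53 on the log2 scale (limma *q* = 0.00161), a call that was lost without normalization between arrays (*q* = 0.103). Against the remaining embryo the fitted difference was 0.34 (*q* = 0.0564), which was called without periotic array 3 (0.45, *q* = 0.00927). *Sox1*, the third SoxB1 gene, stayed within 5.66 and 6.06 on all arrays, none of them above background, so no fold Δ is given for it.

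*Sox21* was graded, highest in periotic tissue, intermediate in OV and lowest in the remaining embryo, and the group means had that order on all 3 probes. Probe 1 gave 11.14, 11.23 and 10.98 in the periotic pools, 10.80, 10.54 and 10.92 in OV and 10.28, 10.34 and 10.45 in the remaining embryo. Probe 2 gave 7.67, 7.59 and 7.42, then 7.35, 7.04 and 7.37, then 6.57, 6.88 and 6.78 in the same order of groups. On these probes no arrays of different groups overlapped. Periotic tissue exceeded the remaining embryo by 0.76 (SE 0.11, fold Δ 1.70, *q* = 2.57e-04) on probe 1 and by 0.82 (SE 0.11, fold Δ 1.76, *q* = 2.22e-04) on probe 2, and both calls held in all 15 alternatives. The dim probe 3, above background on no embryo-minus-otic array, gave a lower bound of 1.13-fold for the same comparison (*q* = 0.0768).

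OV stood between the other groups for *Sox21*. It was higher than the remaining embryo by 0.40 on probe 1 (SE 0.11, fold Δ 1.32, *q* = 0.0236) and by 0.51 on probe 2 (SE 0.11, fold Δ 1.43, *q* = 0.00663). It was lower than periotic tissue by 0.36 on probe 1 (SE 0.11, *q* = 0.0427), by 0.31 on probe 2 (*q* = 0.123) and by 0.12 on probe 3 (*q* = 0.688). The step between OV and periotic tissue was thus called on 1 of 3 probes. That call was lost without OV array 1 (-0.38, *q* = 0.0808) or array 2 (-0.26, *q* = 0.215), without periotic array 1 (-0.35, *q* = 0.128) or array 2 (-0.31, *q* = 0.176), and without embryo-minus-otic array 3 (-0.36, *q* = 0.05). The probe 1 call of OV over the remaining embryo was lost without embryo-minus-otic array 1 (0.36, *q* = 0.0815) or array 2 (0.39, *q* = 0.0589) and without OV array 1 (0.38, *q* = 0.0824) or array 3 (0.31, *q* = 0.124), whereas that of probe 2 held without any single array. The normalization bore on these calls too. Probe 1 over the remaining embryo was not called with neqc (0.41, *q* = 0.0560), median normalization (0.58, *q* = 0.0544) or no normalization (0.44, *q* = 0.236), and probe 2 was not called without normalization (0.42, *q* = 0.293). Probe 1 below periotic tissue was not called with neqc (*q* = 0.0900), median normalization (*q* = 0.228) or no normalization (*q* = 0.292).

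The promoters of *Sox2* and *Sox21*, the SoxB genes above background on every array, are shown because both had their highest group means in periotic tissue. Each line gives the 250 bases before the transcription start from RefSeq on GRCm38.p6, on the gene's strand, for chr3:34649745-34649994 (plus) and chr14:118237031-118237280 (minus). Capitals mark a CCAAT motif, searched on both strands, and both sequences were searched as well for the octamer ATGCAAAT, the Sox motif AACAAT and TATAAA.
Sox2: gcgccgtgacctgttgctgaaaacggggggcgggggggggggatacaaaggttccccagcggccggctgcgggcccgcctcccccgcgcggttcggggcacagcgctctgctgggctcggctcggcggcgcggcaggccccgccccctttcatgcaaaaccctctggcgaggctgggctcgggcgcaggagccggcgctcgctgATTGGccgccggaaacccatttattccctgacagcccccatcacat
Sox21: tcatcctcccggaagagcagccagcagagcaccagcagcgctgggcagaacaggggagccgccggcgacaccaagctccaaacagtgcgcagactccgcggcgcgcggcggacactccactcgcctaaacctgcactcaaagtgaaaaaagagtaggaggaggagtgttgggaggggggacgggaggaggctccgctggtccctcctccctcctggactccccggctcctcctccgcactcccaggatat
The *Sox2* window held a single match, ATTGG, which is CCAAT read on the other strand and begins 46 bases before the start. No motif matched in the *Sox21* window. Over 32851 promoter windows of this length CCAAT was found in 33.8%, the octamer in 1.6%, AACAAT in 9.42% and TATAAA in 12.4%. Promoters of 5 Sox genes were in the table, and 3 of them (*Sox1*, *Sox2* and *Sox4*) held CCAAT while none held another of these motifs. The *Sox2* window was 72.0% G and C and the *Sox21* window 65.2%, against a median of 52.4% over all windows. These matches describe letters only.

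Neural tube progenitor genes were given beside the SoxB genes, since periotic tissue includes hindbrain. Of 11 measured genes, 6 were lower in OV than in periotic tissue and none was higher (limma; at an unadjusted p under 0.05, 7 were lower and 0 higher), and 7 had higher values in periotic tissue than the remaining embryo. OV also had 6 lower genes and 1 higher gene, *Irx3*, against the remaining embryo. The notch target *Hes5* was lower in OV by 4.27 on the log2 scale (*q* = 5.70e-11), the interneuron progenitor gene *Dbx1* was at least 16.3-fold lower in OV (*q* = 9.71e-12), and the ventral progenitor gene *Nkx6-1* at least 9.16-fold lower (*q* = 1.59e-10). The *Sox2* and *Sox21* differences between the same groups were between -0.12 and -0.60. The list's summed intensity ran from 3035 to 3669 in OV, 7696 to 9482 in the periotic pools and 3663 to 4172 in the remaining embryo. Converted back from its log2 group means, *Irx3* alone stood at 2386, 2027 and 1379 in the same order. The OV sum was thus mostly that of 1 gene and does not describe the rest of the list. Of the 11 genes, 7, 2 and 3 were above background on no array of these groups. The part of hindbrain tissue in the SoxB differences was not tested.

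Against the remaining embryo *Hes5* was lower in OV by 2.84 on the log2 scale (*q* = 5.13e-09), *Dbx1* at least 6.86-fold and *Nkx6-1* at least 3.42-fold, while *Sox21* was higher on 2 of 3 probes and neither *Sox2* probe was called. *Irx3*, a homeobox gene of progenitors, was higher in OV by 0.79 (*q* = 3.78e-04). In periotic tissue the list and *Sox21* were both higher than in the remaining embryo, with *Olig3*, a dorsal progenitor gene, higher by 1.74 (*q* = 1.26e-08), *Nes*, the intermediate filament nestin, by 1.50 (*q* = 3.36e-07) and *Hes5* by 1.44 (*q* = 2.38e-05). *Pax6* was above background on no array.

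**Figure D3:**
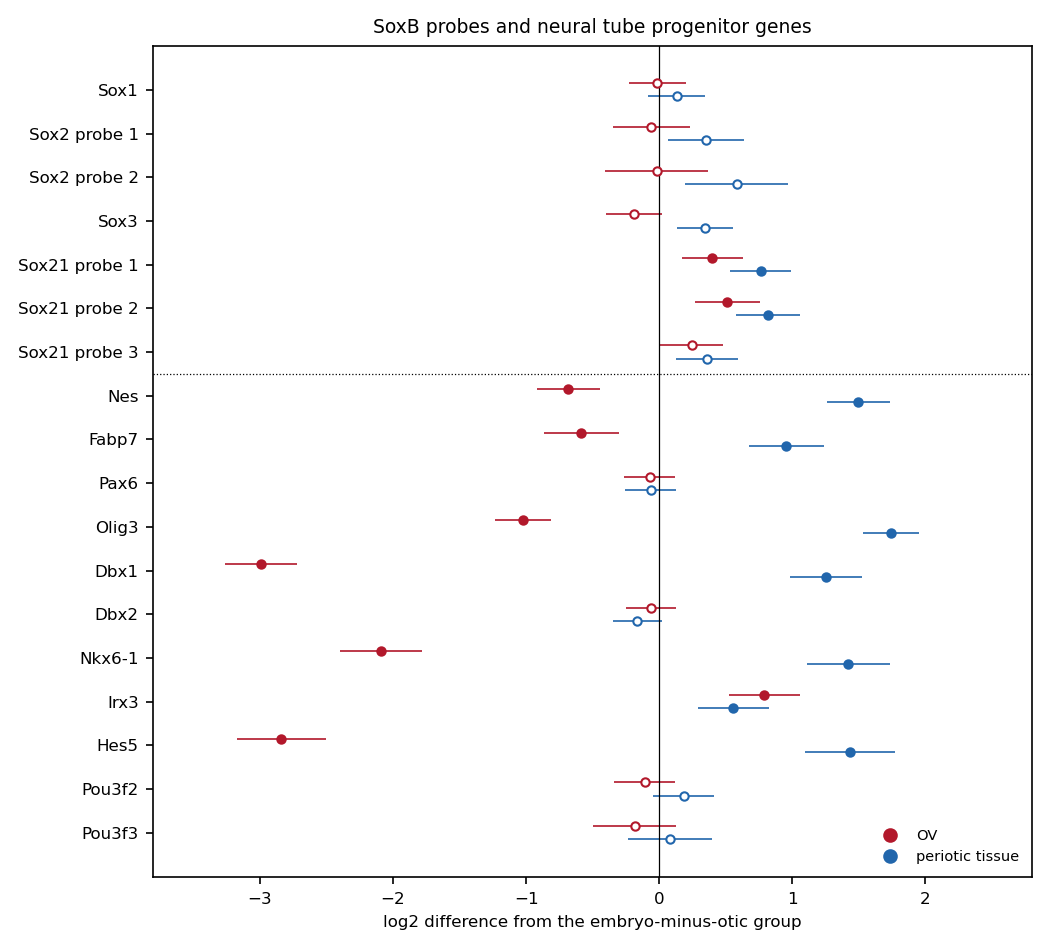
Log2 difference from the remaining embryo (horizontal axis) for OV and periotic tissue, for the SoxB probes above the dotted line and 11 neural tube progenitor genes below it. Points are differences of group means, filled where called, and bars are 95% intervals. *Sox21* is to the right of 0 in both tissues, whereas *Hes5*, *Dbx1* and *Nkx6-1* lie to the left in OV and to the right in periotic tissue.

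Neuronal differentiation genes numbered 14. In OV 7 were lower and 1 was higher than in the periotic pools, 6 were lower and 1 was higher than in the remaining embryo, and 6 had higher values in periotic tissue than the remaining embryo. The higher gene in OV was *Neurod1*, a proneural factor of sensory ganglia, by 1.81 and 1.74 (*q* = 2.94e-08 and 5.48e-08). *Stmn2*, a growth cone protein gene, was lower by 2.83 and 1.61 on the log2 scale.

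The nearest profiles to *Sox2* probe 2 were those of *5430432M24Rik* (root mean square difference 0.0915), *Arl2bp* (0.163) and *Lhfp* (0.163). The median was 0.416 and the probe's own spread 0.380. Those nearest to *Sox21* probe 2 were *Trim2*, a ubiquitin ligase gene (0.0986), *Nuak1*, a kinase gene (0.108), and *2210413P12Rik* (0.124). Here the median was 0.397 and the own spread 0.362. *Trim2* had group means of 9.93 in the periotic pools, 9.76 in OV and 9.16 in the remaining embryo, the order shown by *Sox21*. *Arl2bp* had 9.93 in the periotic pools and 9.49 in both other groups.

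*Sox4*, the SoxC gene measured and known from differentiating neurons and heart, gave no called difference. Its log2 intensity was 6.27, 6.07 and 6.02 in OV, 5.86, 6.19 and 5.93 in the periotic pools and 5.91, 6.27 and 5.69 in the remaining embryo, and 1 OV array and 1 embryo-minus-otic array were above background. All groups overlapped, with *q* of 0.731, 0.578 and 0.948. Differences were therefore not measurable with this probe rather than shown to be absent. *Sox12*, a SoxC gene outside the list, had a brighter probe above background on all 9 arrays, with values from 7.20 to 7.61 and no call on either of its probes.

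*Sox18*, a SoxF gene known from blood and lymphatic endothelium, was lowest in OV. Its log2 intensity was 6.99, 7.12 and 6.93 in OV, 7.51, 7.58 and 7.40 in the periotic pools and 7.87, 7.71 and 7.86 in the remaining embryo, and no arrays of different groups overlapped. OV was lower than periotic tissue by 0.48 (SE 0.091, a fold Δ of 1.40, *q* = 0.00177) and lower than the remaining embryo by 0.80 (SE 0.091, a fold Δ of 1.75, *q* = 1.30e-05). The first of these calls was lost without normalization between arrays (-0.55, *q* = 0.0632). Periotic tissue was lower than the remaining embryo by 0.32 (95% interval of the difference -0.51 to -0.13, *q* = 0.0536), which was called without embryo-minus-otic array 2 (-0.37, *q* = 0.0403).

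*Sox17*, the SoxF gene of endothelium and definitive endoderm, showed the same order of group means on both probes. Probe 1 gave 6.04, 6.10 and 6.23 in OV, 6.53, 6.33 and 6.68 in the periotic pools and 6.66, 7.03 and 6.66 in the remaining embryo, and it was above background on no OV array. Probe 2 gave 6.18, 6.22 and 6.14 in OV, with 1 array above background, then 6.48, 6.50 and 6.66, and 6.67, 6.73 and 6.65. All OV arrays lay below all non-otic arrays on both probes. The embryo-minus-otic group was at least 1.50-fold higher than OV on probe 1 (*q* = 0.00107) and 1.41-fold higher on probe 2 (*q* = 7.34e-04), and these calls held in all 15 alternatives. Periotic tissue was at least 1.24-fold higher on probe 1 (*q* = 0.0459) and 1.29-fold higher on probe 2 (*q* = 0.00889). The fitted probe 1 difference of -0.39 from periotic tissue was not called without OV array 1 (-0.35, *q* = 0.162), array 2 (-0.38, *q* = 0.136) or array 3 (-0.45, *q* = 0.0536), without periotic array 1 (-0.39, *q* = 0.130) or array 3 (-0.30, *q* = 0.198), and without embryo-minus-otic array 3 (-0.39, *q* = 0.0505). It was also not called with median normalization (*q* = 0.218) or without normalization (*q* = 0.294). The probe 2 difference was not called without periotic array 3 (-0.30, *q* = 0.0540), with median normalization (*q* = 0.0515) or without normalization (*q* = 0.350). Neither probe was called between the non-otic groups (*q* = 0.260 and 0.516).

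*Sox7*, the third SoxF gene and outside the list, had its brighter probe at 6.70, 6.58 and 6.81 in OV, 7.46, 7.58 and 7.45 in the periotic pools and 7.40, 7.55 and 7.61 in the remaining embryo. OV was below all other arrays, and the non-otic groups overlapped. The differences were -0.80 against periotic tissue (SE 0.093, *q* = 1.67e-05) and -0.83 against the remaining embryo (SE 0.093, *q* = 1.25e-05), and on probe 2 they were -0.47 (*q* = 0.0159) and -0.50 (*q* = 0.0102). Between the non-otic groups the differences were -0.022 and -0.029.

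**Figure D4:**
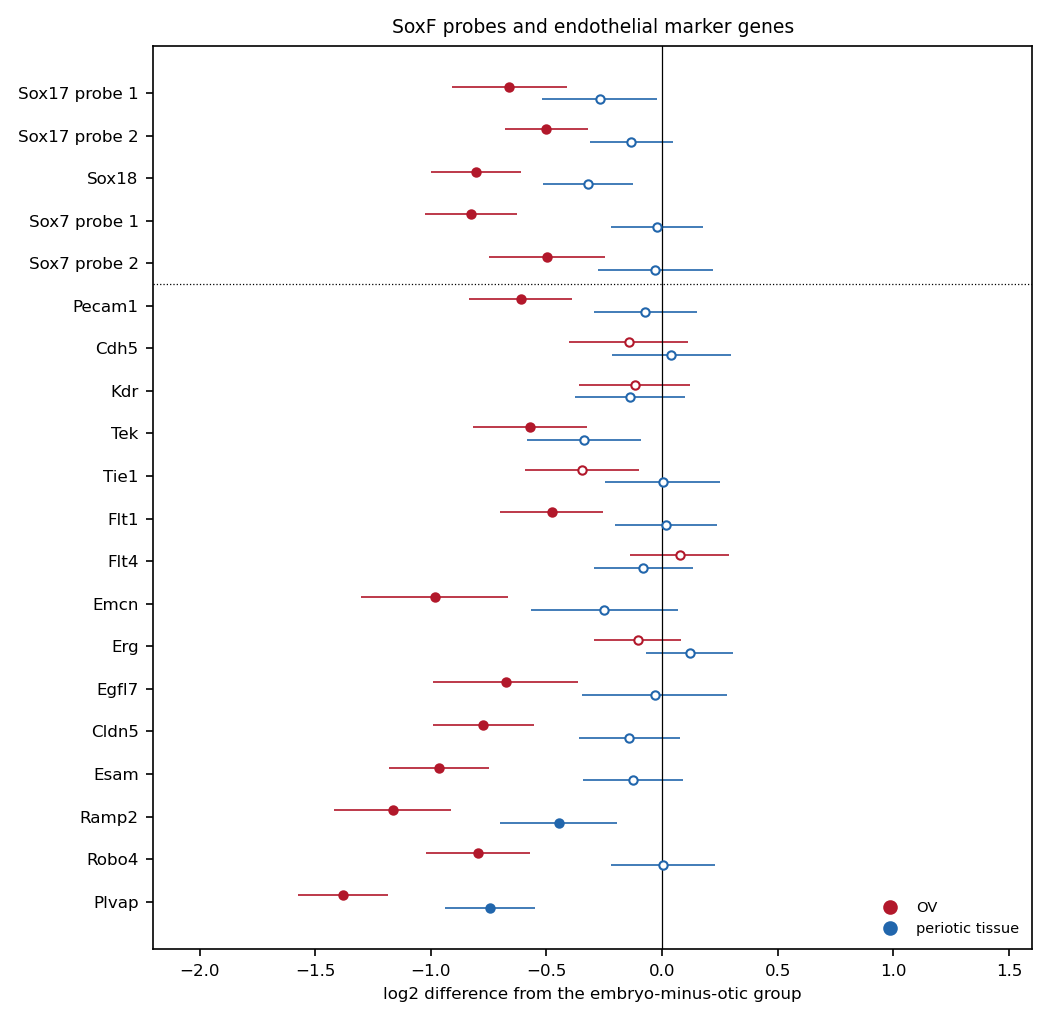
Log2 difference from the remaining embryo (horizontal axis) for OV and periotic tissue, for *Sox17*, *Sox18* and *Sox7* probes above the dotted line and 15 endothelial marker genes below it. Points are differences of group means, filled where called, and bars are 95% intervals. All 5 SoxF probes are called lower in OV, as are 10 of the 15 marker genes, and 2 marker genes (*Ramp2* and *Plvap*) are called lower in periotic tissue.

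Endothelial markers were given beside the SoxF genes. Of 15 measured genes, 9 were lower in OV than in the periotic pools and 10 were lower than in the remaining embryo, with none higher (limma; at an unadjusted p under 0.05, 11 were lower and 0 higher in each). Over all probes, 5.15% and 5.51% were called lower in these comparisons. Lower values in OV were not particular to these markers, since 8 of 9 erythroid genes were lower in both comparisons. With median normalization 5 endothelial genes in place of 10 were called against the remaining embryo. The list's median difference was -0.54 and -0.61, and -0.081 between the non-otic groups. *Pecam1*, the platelet and endothelial adhesion molecule gene, was lower in OV by 0.54 (*q* = 0.00224) and 0.61 (*q* = 7.55e-04), and *Esam*, an endothelial junction gene, by 0.84 (*q* = 2.59e-05) and 0.97 (*q* = 6.17e-06). *Plvap*, a gene of fenestrated vessels, was lower in OV by 0.64 and 1.38 and lower in periotic tissue than in the remaining embryo by 0.74 (*q* = 6.62e-05). *Cdh5*, which encodes VE-cadherin, was not called in any comparison. The list's summed intensity ran from 3094 to 3893 in OV, 5112 to 5455 in the periotic pools and 5696 to 6356 in the remaining embryo, and 2, 3 and 2 of the 15 genes were above background on no array of these groups, among them *Flt4* and *Erg* on no array at all. The part of vessel content in the SoxF differences was not tested.

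Endoderm markers, given beside *Sox17*, had 9 measured genes. In OV 2 were lower than in the periotic pools and 6 were lower than in the remaining embryo, where the fetal liver and yolk sac gene *Afp* was at least 2.97-fold and the hindgut factor gene *Cdx2* at least 2.11-fold higher than in OV. The summed intensity ran from 498 to 581 in OV, 623 to 683 in the periotic pools and 973 to 1249 in the remaining embryo, and 7, 5 and 2 of the 9 genes were above background on no array. The part of endoderm in the *Sox17* difference was not tested.

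The nearest profiles to *Sox18* were those of *Ppp1r3c*, a glycogen metabolism gene (root mean square difference 0.0891), *Timp1*, a metalloproteinase inhibitor gene (0.0933), and *LOC232680* (0.108). The median was 0.384 and the own spread of *Sox18* 0.339. *Timp1* had group means of 6.94 in OV, 7.39 in the periotic pools and 7.66 in the remaining embryo. No endothelial marker of the list was among these 3 genes. Only the 3 nearest of 11839 probes were kept, so this absence does not show how near the markers lay.

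**Figure D5:**
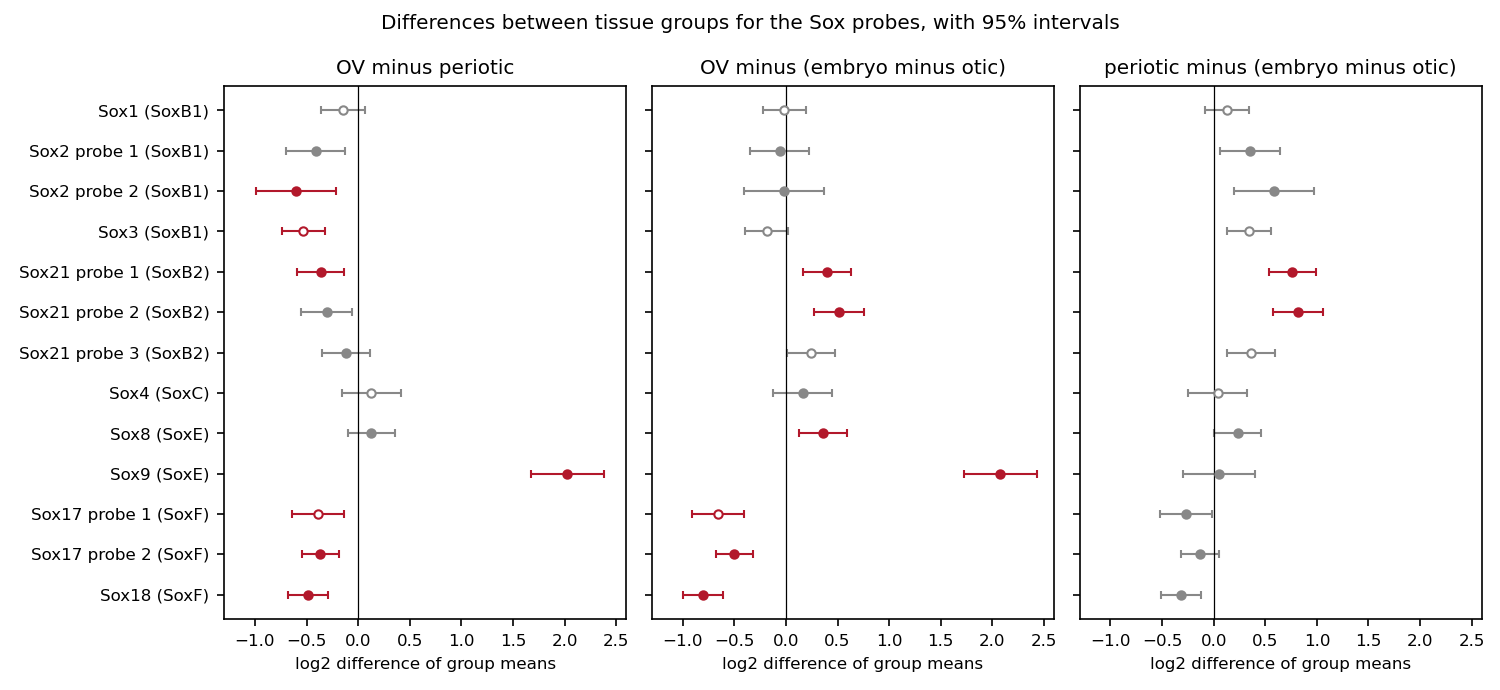
Log2 difference of group means (horizontal axis) for the 13 Sox probes in the 3 comparisons, with 95% intervals. Red points were called, grey points were not, and open points had at least 1 group of the comparison with no array above background. *Sox9* stands at about 2.03 and 2.08 in the comparisons with OV and near 0 between the non-otic groups, where only the 2 brighter *Sox21* probes were called.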

How the data were processed

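RNA of 9 pools, 3 of each tissue group, was hybridized to single-colour Illumina bead arrays, and the label of each array gave its group. The authors deposited for every probe the average signal of the scanner software as an intensity that was not normalized between arrays, together with a deposited detection p-value. Background subtraction and the slide of each array are not given in the sources used here, so slide was not tested as a batch. Precision is limited by the small number of arrays.

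Intensities were log2 transformed with a floor of 1 and quantile normalized, and limma 3.58.1 (R 4.3.3) was run over the full probe table as 1 model of the 3 groups with an empirical Bayes prior. The log2 scale, quantile normalization, moderated test and Benjamini-Hochberg adjustment follow the study's methods, where these arrays were processed together with arrays of sorted cochlear cells that were not used here. The model of 3 groups and the floor were chosen for the present values. The steps were tested on simulated data. Promoters were searched with Python 3.11.15 and figures drawn with matplotlib 3.10.9. For a bound, the dim group's value was raised per array to at least the lowest signal of any detected probe.

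The members and lists were chosen with earlier results of these data known. Of 125 list genes, 107 matched by array symbol and 11 by a synonym in a RefSeq gene table, and 7 were not analysed here, *Sox10* and *Sox14* among them. The brightest probe stood for a list gene. Named genes were all Sox probes, for each list and comparison up to 3 called genes per direction with the largest difference, and the 3 nearest profiles for 1 member per subgroup with a probe above background on all arrays of a group. Genes named beyond these (*Pecam1*, *Cdh5*, *Flt4*, *Erg*, *Acan* and *Pax6*) are defining markers chosen after their values were seen, and not every gene that the rule covers is described. The gene of the neural crest list that was higher in OV is not reported here. Other settings tried were neqc (offset 16), median or no normalization, only probes above background, a fit of the compared groups alone, the replicate number as a block, each array left out in turn, and a detection threshold of 0.05.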

Additional observations from a re-analysis of the deposited data

How the results depend on the processing

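*Sox9* was called higher in OV in both comparisons under all 15 alternatives, and the order of OV below the non-otic groups for *Sox17* and *Sox18* kept its direction throughout. Between OV and periotic tissue the 7 calls became 3 with median normalization and 2 without normalization, and between OV and the remaining embryo the 7 became 4 without normalization, of which 1 was higher and 3 were lower. Leaving out 1 array gave 4 to 7, 5 to 6 and 2 to 4 calls in the 3 comparisons. The lowest count of the first came without OV array 1 or periotic array 1, and the highest of the third without periotic array 3 or embryo-minus-otic array 2. The cause was not tested. The labels number the arrays of each group but do not tie a number to a litter. Deviations of same-numbered arrays from their group means correlated at 0.011 to 0.234, above 0.1 in 5 of 9 pairs. For arrays of different numbers the range was -0.192 to 0.064. Of the 9 arrays, 6 correlated best with their own number in both other groups. Same-numbered arrays thus tended to deviate together. The main model nevertheless uses no pairing, because no label ties a number to a litter. With the replicate number as a block, 7, 7 and 4 probes were called, the 4 being the *Sox21* pair, *Sox2* probe 2 (*q* = 0.00202) and *Sox3* (*q* = 0.0445). With neqc, which subtracts background, dim differences widened, to -1.06 for *Sox18* against the remaining embryo. Of the 16 called Sox results, 192 alternative values stayed called, 47 were no longer called and none changed sign. Among the 23 that were not called, 10 values became called and 14 changed sign, all in uncalled differences. With median normalization OV minus embryo-minus-otic became 0.0064 for *Sox1* and 0.11 and 0.12 for the *Sox2* probes, and without normalization *Sox4* became -0.12 for periotic minus embryo-minus-otic. With 1 array left out, OV minus periotic ranged from -0.18 to 0.0010 for *Sox21* probe 3, OV minus embryo-minus-otic from -0.053 to 0.050 for *Sox1*, from -0.19 to 0.020 for *Sox2* probe 1 and from -0.16 to 0.18 for *Sox2* probe 2, and periotic minus embryo-minus-otic from -0.095 to 0.19 for *Sox4* and from -0.079 to 0.17 for *Sox9*. Signal over background limits *Sox1*, *Sox3* and *Sox4*.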

Other observations

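Of 10 further Sox genes outside the list, 8 were measured by 16 probes. *Sox13*, a SoxD gene, gave 7.05, 7.02 and 7.24 in OV, 7.27, 7.60 and 7.73 in the periotic pools and 6.94, 7.24 and 7.06 in the remaining embryo. It was lower in OV than in periotic tissue by 0.43 on the log2 scale (SE 0.12, limma *q* = 0.0292) and higher in periotic tissue than in the remaining embryo by 0.46 (SE 0.12, *q* = 0.0351). *Sox15*, *Sox30* and *Sry* were above background on no array. Of the 16 probes, 6, 5 and 2 were called in the 3 comparisons, all of them for *Sox5*, *Sox7* or *Sox13*, which is 37.5%, 31.2% and 12.5%, beside the shares of 10.2%, 11.4% and 5.81% over all probes.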
